A study of Mus musculus with 4 samples.

Results

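The SR and hnRNP splicing factors are described here as a set of 45 genes among the 52459 genes listed in the counts. They were chosen with earlier results of these data known, by a rule that uses symbols and no measured value, as the Srsf genes with a number, the genes whose name starts with Hnrnp, and Tra2a, Tra2b, U2af1, U2af2, Sf1, Sf3b1, Sf3b2, Sf3b3, Sf3a1, Rbm39, Rbm25, Ptbp1, Mbnl1 and Mbnl2. The set holds 11 SR genes, 2 Tra2 genes, 20 hnRNP genes, 7 genes of splice acceptor and branch point recognition, and 5 genes of the RBM, PTBP and MBNL families, and 2 listed Hnrnp names with a hyphen were left out. Their expression was compared between intestinal stem cells (ISCs) of wildtype C57/Bl6 mice at 2 months of age (ISC_2mth, young) and at 22 months (ISC_22mth, old), with 2 libraries per age. Each library came from a pool of 5 animals, which by the study's methods were female, and animals within a pool cannot be told apart. ISCs were sorted by FACS from small intestinal crypts by 8 surface markers, EPCAM, EPHB2, CD44, CD166, CD24 and GRP78 among them, and CD31 and CD45 excluding endothelial cells and leukocytes. RNA was amplified along the whole transcript by single primer isothermal amplification (SPIA). The pools gave between 11662654 and 15975698 counts, of which mitochondrially encoded genes took 62.6% to 73.8%.

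Introns are removed from pre-mRNA by the spliceosome, and the proteins of this set help to decide where it assembles. SR proteins carry a domain rich in arginine and serine, bind exons and mostly favour their inclusion, whereas many hnRNP proteins coat nascent RNA and often block nearby splice sites. SF1, the U2AF proteins and the SF3 complex recognise the branch point and the end of the intron, and PTBP1, MBNL1 and MBNL2 shift the choice of exons between cell states. Many of these genes control their own mRNA by switching to isoforms with an early stop codon, which are then destroyed by nonsense-mediated decay. In the intestinal crypt, ISCs divide throughout life and their progeny pass through rapid division before they differentiate, so that new mRNA is spliced in large amounts.

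The labelled cell type was checked on 10 stem cell markers, all of which passed the filter on low counts. Lgr5, the Wnt-responsive receptor that marks crypt base ISCs, had 3599 and 3236 counts in the young pools and 2758 and 2518 in the old pools, and Olfm4 had between 14687 and 18866 in all 4. The 8 endothelial and stromal markers summed to at most 12 counts in any pool, and Cdh5, Kdr, Col1a2, Col3a1 and Pdgfra were at 0. Of the 12 leukocyte markers, Cd68 and Itgam passed the filter, and Ptprc had 2 counts in a single old pool and 0 elsewhere. Paneth cell markers stood apart in ISC_22mth replicate 1, where the 7 genes summed to 2074 CPM (counts scaled to the normalized size of the library), against 936 and 720 in the young pools and 805 in the other old pool. The 7 goblet cell markers summed to 1945 and 2563 CPM in the young pools and to 2657 and 2069 CPM in the old pools. Beside them, the 10 stem cell markers summed to 2942 and 2760 CPM in the young pools and to 2770 and 2973 CPM in the old pools. In RNA from pools of cells, fewer cells of a type and less RNA per cell cannot be told apart.

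Splicing factor genes were among the more abundant genes of these ISCs. Levels were compared between genes as RPKM (CPM per kilobase of exon), averaged over the 4 pools. The 44 members that passed the filter had a median of 12.9 RPKM, a level above that of 92.3% of the genes tested, and ranged from 1.91 for Srsf4 to 77.1 for Hnrnpa2b1. Family medians were 16.8 RPKM for the SR genes, 14.8 for the hnRNP genes, 11.9 for the RBM, PTBP and MBNL genes, 7.92 for the Tra2 genes and 5.79 for the branch point and acceptor genes. Hnrnpa2b1, an abundant hnRNP that also binds RNA modified on adenosine, had 68.5, 77.9, 91.5 and 70.7 RPKM in ISC_2mth replicates 1 and 2 and ISC_22mth replicates 1 and 2, in this order, which is the order used throughout. The ages overlapped for this gene. Next came the SR genes Srsf2, with a mean of 42.1 RPKM (36.5, 43.8, 48.9 and 39.3), and Srsf5 with 41.7 RPKM (40.3, 46.6, 42.6 and 37.2). These 2 genes did not differ in level beyond the spread of the pools. The rank of Srsf2 is uncertain, since 20.7% of its 50-nt stretches are shared and 460 bp of its exons overlap those of Mettl23 on the opposite strand. Srsf12 was the member that did not pass the filter, with 0 counts in 3 pools and 3 counts in ISC_22mth replicate 2. The limit that a count of 0 allows is 3 counts, or between 0.199 and 0.227 CPM in these 3 pools, and no fold is given for this gene.

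**Figure D1:**
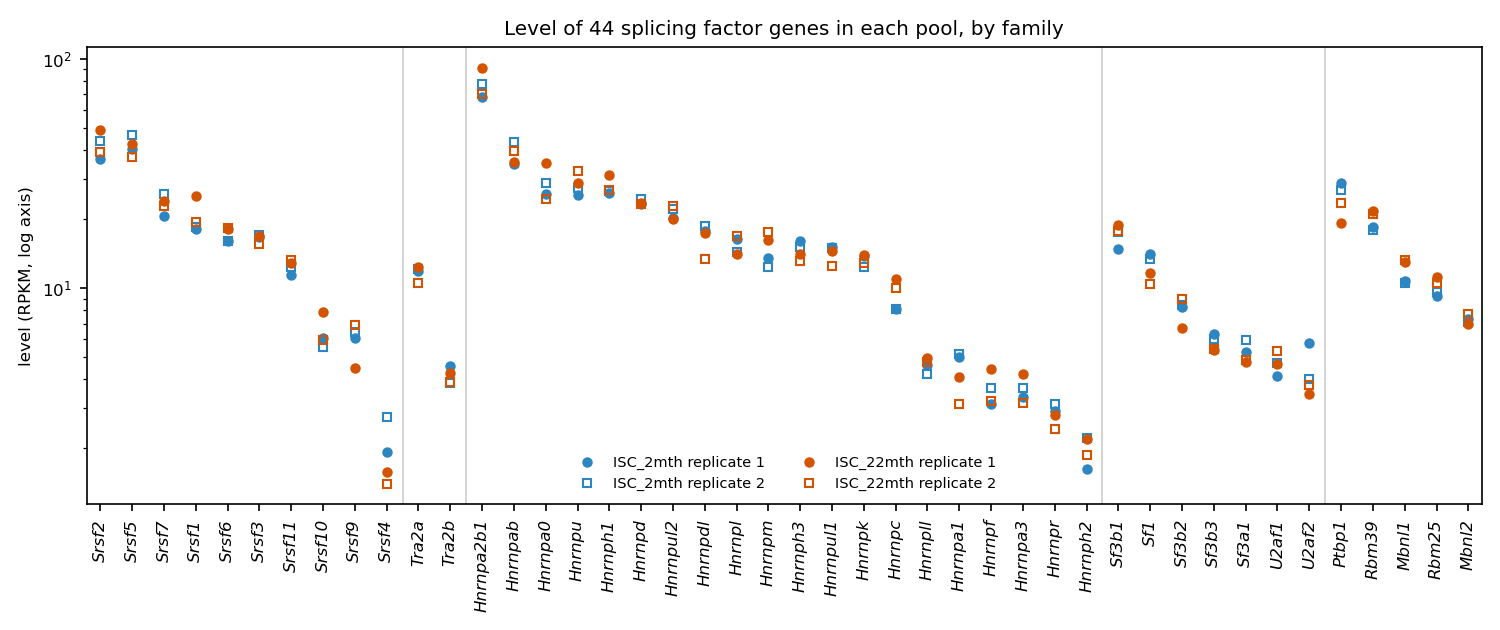
Level of the 44 splicing factor genes tested, in RPKM on a log axis, with 1 point for each of the 4 pools and genes grouped by family from left to right as SR, Tra2, hnRNP, branch point and acceptor genes, and RBM, PTBP and MBNL genes. Hnrnpa2b1 is highest at a mean of 77.1 RPKM and Srsf4 lowest at 1.91, and for most genes the spread between pools is small beside the differences between genes.

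As a set, the splicing factors were nearly level between the ages. Of the 44 members tested, 0 were higher and 0 lower at an FDR under 0.05, where 2.26% of all 13692 genes tested were called, 1.63% higher and 0.628% lower. FDR stands here for the p of the edgeR quasi-likelihood fit after Benjamini-Hochberg adjustment over all genes, unless another tool is named. At an unadjusted p under 0.05 there were 9 members, 4 higher and 5 lower in old ISCs, where 16.9% of all genes tested reached that p (9.26% higher, 7.65% lower). Among the 5109 genes within the middle range of the members' own levels, from their 10th to their 90th percentile, it was 22.1%. Limma voom with sample quality weights (lowest FDR = 0.058), DESeq2 (0.13) and edgeR's likelihood ratio test (0.086) also called 0 members when run here on these 4 pools. The study's own fit was not rebuilt, so these counts do not stand for the genes that the study called. The members had a median difference of 0.022 on the log2 scale, beside -0.0049 for all genes tested and 0.056 for the genes of like level. A positive value was found in 25 members and a negative one in 19, where 50.5% of all genes tested had a negative one. This balance turned to 20 positive and 24 negative with upper quartile scaling or without ISC_22mth replicate 1, to 21 and 23 with offsets for GC content and length, and to 0 and 44 with total counts. The old pools were both above the young pools in 12 members (24% of all genes tested) and below them in 11 (23.6%), and in 21 members the ages overlapped. Pools of the ages did not overlap in 47.6% of all genes tested.
The members together took 1.41% and 1.46% of the counts outside mitochondrially encoded genes in the young pools, and 1.48% and 1.40% in the old ones, so that the pools of an age differed by more than the ages did. A difference that misses the threshold is not shown to be absent, and the intervals give its bounds. The 95% intervals reached between 0.23 and 0.54 on the log2 scale to either side of the estimate, with a median of 0.27. In 43 members the interval excluded a 2-fold difference in either direction, and in 36 a 1.5-fold difference. An exact permutation of 4 pools reaches no p under 0.333, so none is given. The p-values set each difference between ages against a spread between pools that is moderated over all genes tested.

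**Figure D2:**
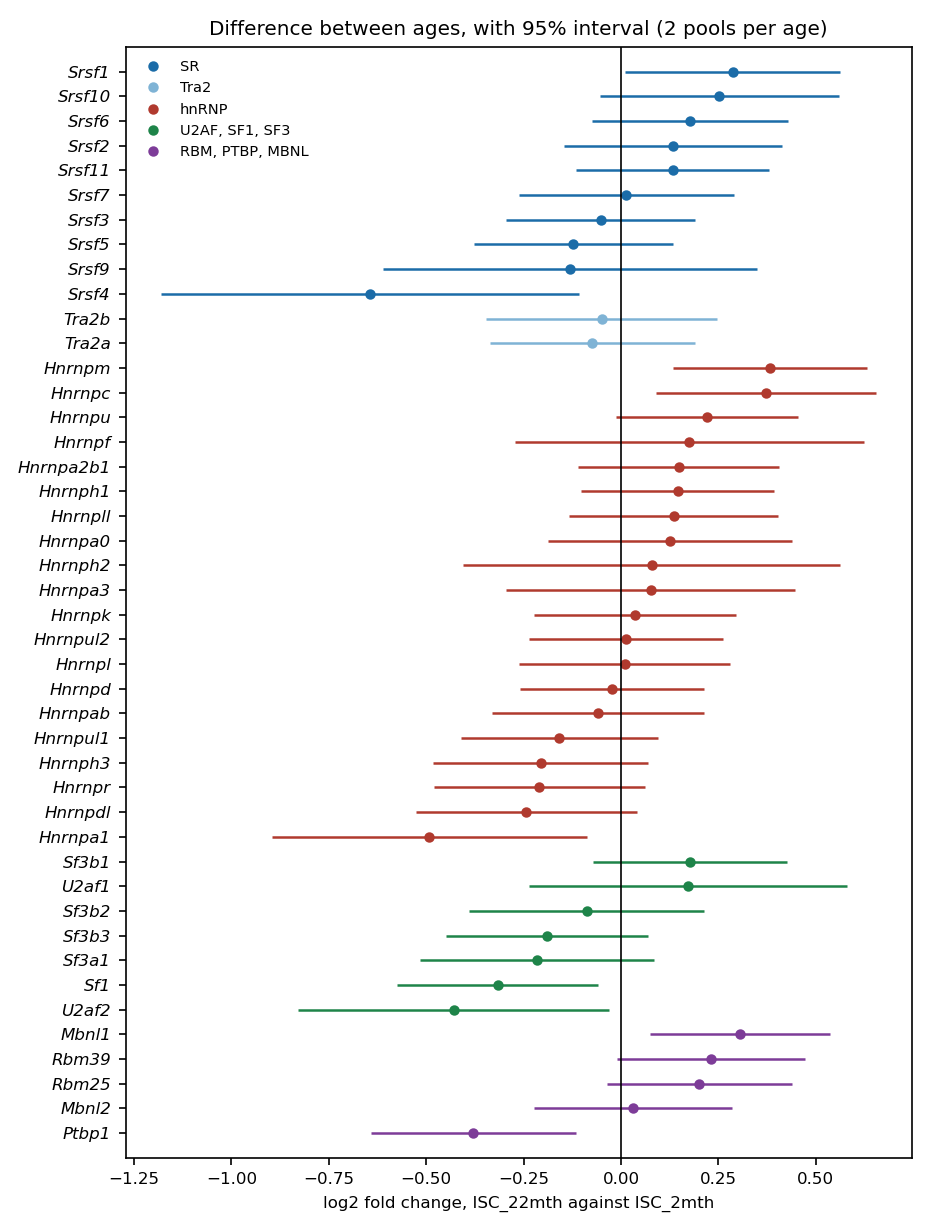
Log2 fold change of each splicing factor gene tested in ISC_22mth against ISC_2mth pools, with its 95% interval from edgeR's quasi-likelihood test (2 pools per age), coloured and grouped by family. Values run from -0.64 for Srsf4 to 0.38 for Hnrnpm, and most intervals cross 0.

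Among the 10 SR genes tested, log2 fold changes ran from -0.64 to 0.29 with a median of 0.073, and 6 were positive. Srsf1, the founding SR protein, which promotes exon inclusion and acts as an oncogene when in excess, had 103, 105, 144 and 111 CPM. Old pools were both above the young ones, but ISC_22mth replicate 1 was far above the other. The estimate was 0.29 on the log2 scale (standard error, SE, 0.13, FDR = 0.277), and 0.18 with offsets for GC content and length in each library. It became 0.087 without ISC_22mth replicate 1 and 0.46 without ISC_22mth replicate 2. Srsf4, a long SR protein, had 6.83, 9.74, 5.60 and 5.00 CPM from 99, 147, 74 and 61 counts. It was the lowest expressed of the SR genes tested, with both old pools below both young pools and the young pools far apart. The estimate was -0.64 (SE 0.26, FDR = 0.202), and -0.37 without ISC_2mth replicate 2. Exons of Srsf4, on chromosome 4 from 131873617 to 131901706 of GRCm38, overlap those of Gm12992 on the opposite strand over 1532 bp, and 39.5% of its 50-nt stretches occur in that gene, so its count is uncertain.
The other SR genes had log2 fold changes of 0.25 (Srsf10, a splicing repressor activated by dephosphorylation), 0.18 (Srsf6), 0.13 (Srsf2 and Srsf11), 0.014 (Srsf7), -0.053 (Srsf3), -0.12 (Srsf5) and -0.13 (Srsf9). Srsf3 and Srsf7, which also couple splicing to export of mRNA, were both within 0.053 of 0, with 95% intervals of -0.30 to 0.19 and of -0.26 to 0.29. Srsf6 stood out by its small spread, with 77.4 and 77.2 CPM in young ISCs and 86.9 and 87.9 CPM in old ISCs (FDR = 0.48). Tra2a and Tra2b, which resemble SR proteins and bind purine-rich exonic enhancers, had log2 fold changes of -0.074 and -0.050, and the ages overlapped in both.

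The 20 hnRNP genes ranged from -0.49 to 0.38 with a median of 0.056, and 13 were positive. Hnrnpm, which binds RNA rich in guanosine and uridine, had the lowest p of all members. It had 107, 98.9, 129 and 140 CPM from 1556, 1492, 1706 and 1708 counts, with both old pools above both young pools. The mean was 103 ± 6.001 CPM in young and 134 ± 7.63 CPM in old ISCs (SD, n = 2 pools each), a log2 fold change of 0.38 (SE 0.12, FDR = 0.104). The log2 fold change lay between 0.32 and 0.44 with each pool left out in turn. Hnrnpm lies on chromosome 17 from 33646233 to 33686860, and 1169 bp of its exons overlap those of March2 on the same strand, where reads cannot be assigned to either gene. Of its 50-nt stretches, 13.5% occur in March2.
Hnrnpc, which binds uridine tracts and competes there with U2AF2, had 34.9, 35.1, 47.4 and 43.2 CPM. Both old pools were above the closely matched young pools, with a log2 fold change of 0.37 (SE 0.14, FDR = 0.165), which was 0.24 with offsets for GC content and length. Hnrnpu, a nuclear scaffold protein and one of the most abundant hnRNPs, had 294, 316, 334 and 377 CPM and a log2 fold change of 0.22 (FDR = 0.32), which was 0.13 without ISC_22mth replicate 2. Hnrnpu lies on chromosome 1 from 178321108 to 178337797, with 804 bp of its exons overlapping those of Cox20 on the opposite strand.
Hnrnpa1, the classical silencer of exons and counterpart of SRSF1, had the lowest log2 fold change of the family. Its level was 15.7, 16.2, 12.9 and 9.83 CPM from 228, 245, 170 and 120 counts, with both old pools below both young pools. The estimate was -0.49 (SE 0.19, FDR = 0.199), and between -0.70 and -0.31 with each pool left out in turn. Of the 50-nt stretches of Hnrnpa1, 28.2% occur in transcripts of 20 other genes, 19 of them pseudogenes, so that its count is uncertain. The same holds for Hnrnpf (61.9% shared), Hnrnpa3 (27.1%, with 41 pseudogenes) and Hnrnpab (23.8%, with 809 bp of exons overlapping Phykpl on the opposite strand). Hnrnpdl, a relative of Hnrnpd, had 85.9, 89.9, 83.9 and 64.5 CPM and a log2 fold change of -0.24 (FDR = 0.38). Its lower mean rests on ISC_22mth replicate 2, without which the log2 fold change was -0.065, whereas without ISC_22mth replicate 1 it was -0.44.
The other hnRNP genes lay between -0.21 and 0.18. Positive values were those of Hnrnpf (0.18), Hnrnpa2b1 (0.15), Hnrnph1 (0.14), Hnrnpll (0.13), Hnrnpa0 (0.13), Hnrnph2 (0.079), Hnrnpa3 (0.076), Hnrnpk (0.037), Hnrnpul2 (0.012) and Hnrnpl (0.0093), and negative ones those of Hnrnpd (-0.022), Hnrnpab (-0.059), Hnrnpul1 (-0.16), Hnrnph3 (-0.21) and Hnrnpr (-0.21). Hnrnpl, which binds CA repeats, Hnrnpk, which binds cytidine-rich RNA, and Hnrnpd, which acts on mRNAs with AU-rich elements, were among the members closest to 0, with 95% intervals of -0.26 to 0.28, -0.22 to 0.30 and -0.26 to 0.21.

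Of the 7 genes of branch point and acceptor recognition, 5 had negative values, and their median was -0.19. Sf1, which binds the branch point first, had 87.5, 83.4, 72.1 and 65.03 CPM. Both old pools lay below both young pools, with a log2 fold change of -0.32 (SE 0.12, FDR = 0.195). U2af2, the large U2AF subunit that binds the polypyrimidine tract, had 23.6, 16.4, 14.2 and 15.6 CPM, with 14.7% of its 50-nt stretches shared with 3 pseudogenes. The old pools were below the young pools, but ISC_2mth replicate 2 lay close to them, and the log2 fold change of -0.43 (SE 0.19, FDR = 0.261) became -0.15 without ISC_2mth replicate 1 and -0.67 without ISC_2mth replicate 2. U2af1, the small subunit that reads the AG at the end of the intron, was at 0.17 with overlapping ages, and its count is uncertain, with 21.7% of its stretches shared with 3 pseudogenes. The SF3 genes were at 0.18 (Sf3b1, the subunit that holds the branch point), -0.088 (Sf3b2), -0.19 (Sf3b3) and -0.22 (Sf3a1). The 18 other genes of this step (Sf3b4, Sf3a3, Puf60 and others) had a median of 0.052, with 0 called and 1 at an unadjusted p under 0.05 (Cherp, log2 fold change -0.33, FDR = 0.28).

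Ptbp1 and Mbnl1 had the lowest p among the 5 genes of the RBM, PTBP and MBNL families, and lay on opposite sides of 0. Ptbp1, which silences exons flanked by pyrimidine-rich RNA and keeps cells from neuronal and muscle splicing patterns, had 137, 127, 91.6 and 111 CPM from 1984, 1914, 1211 and 1358 counts. Both old pools were below both young pools. The mean was 132 ± 7.11 CPM in young and 101 ± 13.8 CPM in old ISCs (SD, n = 2 pools each), a log2 fold change of -0.38 (SE 0.13, FDR = 0.127). Without ISC_22mth replicate 2 the log2 fold change was -0.52, and without ISC_22mth replicate 1 it was -0.24. Ptbp1 lies on chromosome 10 from 79854427 to 79864771, and 437 bp of its exons overlap those of Gm17134 on the opposite strand. Of its 50-nt stretches, 18.3% occur in 5 other genes, 2 of them pseudogenes. Its paralogs Ptbp2 and Ptbp3, named after their values were seen, had log2 fold changes of -0.11 and 0.17 (FDR = 0.79 and 0.47).
Mbnl1, which favours adult splicing patterns in differentiated cells and is sequestered by expanded repeats in myotonic dystrophy, had 200, 198, 244 and 249 CPM. The pools of each age were close together and the old pools higher, at 199 ± 1.86 against 246 ± 3.74 CPM (SD, n = 2 pools each), a log2 fold change of 0.31 (SE 0.11, FDR = 0.161). It stayed between 0.29 and 0.32 with each pool left out in turn. Mbnl2 was at 0.031, with a 95% interval of -0.22 to 0.28. Rbm39, an SR-related partner of U2AF, had 129, 124, 151 and 146 CPM and a log2 fold change of 0.23 (FDR = 0.32), and Rbm25, which acts with the U1 particle, one of 0.20 (FDR = 0.39), both with the old pools above the young pools.

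Reads were counted per gene, so productive and decay isoforms of a splicing factor were added together. Among the 45 members, 28 (62.2%) have an annotated transcript of the nonsense-mediated decay type in GENCODE vM21, against 29.8% of the protein-coding genes tested and 43.2% of those with 5 or more transcripts. The members have a median of 9 annotated transcripts and the protein-coding genes tested a median of 5. In Ptbp1, an exon present in coding transcripts is absent from decay transcripts. The exon below, on the plus strand of chr10:79862014-79862047 (GRCm38), is coding in 3 transcripts and is skipped in 2 of the 3 decay transcripts of Ptbp1, 1 of which also lacks a 78-base exon of a coding transcript. It is shown because its length of 34 bases is no multiple of 3, which shifts the reading frame when it is skipped, and because the gene counts do not tell which form was present.
Ptbp1 skipped exon: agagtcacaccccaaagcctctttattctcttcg

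Start site regions were compared in letters only, in windows of 300 bases from RefSeq (GRCm38.p6) that reach from 250 bases before to 50 bases after the start. A window was found for 42 of the 45 members, and the one nearest the GENCODE start was used. These windows had a median of 25.5 CG dinucleotides against 7 over all 32851 windows in the table, which hold several windows for some genes. On either strand, the GC box GGGCGG was present in 31 member windows (73.8%, against 35.7% of all windows), CCAAT in 25 (59.5%, against 37.4%), the ETS-type letters CCGGAAG in 9 (21.4%, against 8.86%), TATAAA in 7 (16.7%, against 13.6%), the E-box CACGTG in 6 (14.3%, against 7.15%), TGACGTCA in 1 (2.38%, against 1.79%) and the NRF1 motif in 0 (against 0.971%). The E-box members were Hnrnpa3, Hnrnpd, Hnrnph2, Hnrnpm, Mbnl1 and Ptbp1, so that it occurred with positive and with negative values. The windows of the members with the lowest p in each direction are printed with these letters in capitals. That of Hnrnpm is on the minus strand of chr17:33685409-33685708, with its RefSeq start 1402 bp from the GENCODE start, and that of Ptbp1 on the plus strand of chr10:79854182-79854481.
Hnrnpm start region: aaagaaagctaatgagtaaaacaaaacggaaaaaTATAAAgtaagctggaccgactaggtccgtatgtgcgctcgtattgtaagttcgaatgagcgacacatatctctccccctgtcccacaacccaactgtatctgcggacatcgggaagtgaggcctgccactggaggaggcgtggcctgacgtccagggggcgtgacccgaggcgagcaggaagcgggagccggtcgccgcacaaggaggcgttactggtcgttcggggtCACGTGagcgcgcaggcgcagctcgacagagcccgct
Ptbp1 start region: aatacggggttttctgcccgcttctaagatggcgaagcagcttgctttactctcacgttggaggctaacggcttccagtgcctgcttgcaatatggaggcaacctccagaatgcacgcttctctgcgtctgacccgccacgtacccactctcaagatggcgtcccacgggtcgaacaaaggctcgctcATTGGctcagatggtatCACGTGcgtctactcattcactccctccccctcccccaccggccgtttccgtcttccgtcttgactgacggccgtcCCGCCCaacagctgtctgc
Hnrnpm holds TATAAA and CACGTG, and Ptbp1 holds CCAAT on the minus strand, CACGTG, and the GC box on the minus strand.

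The difference between pools of the same age was set beside that of all genes and of the 5109 genes of like level, as a description with no test. Between the ISC_22mth pools the difference exceeded 0.25 on the log2 scale, in either direction, in 13 members (29.5%), against 48.3% of all genes tested and 29.8% of those of like level, and it reached 0.52 for Hnrnpa0 and -0.60 for Srsf9. Between the ISC_2mth pools it did so in 6 members (13.6%), against 42.5% and 21.9%. In ISC_22mth, 28 of 44 members were higher in replicate 1 (49.5% of all genes), with a median log2 difference of 0.091 against -0.0036 over all genes. In ISC_2mth, 16 of 44 were (50.3% of all genes), with a median of -0.039 against 0.0020. Hnrnpa0, an hnRNP that binds AU-rich mRNA, had 68.9, 77.2, 93.8 and 65.4 CPM, so that the lowest and the highest pool were both old.

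Differences between ages ran lower with higher GC content of the exons, in the splicing factors and in all genes. Across the 44 members, which share the same 4 libraries and are not replicates, Spearman's rho between exonic GC content and log2 fold change was -0.57, and -0.22 across the 13236 genes tested that had a GC content. The 22 members with a GC content of at least 43.7% were at a median of -0.11 on the log2 scale, with 13 negative, and the 22 with a lower GC content a median of 0.13, with 6 negative. Over all genes on the same sides of 43.7%, the medians were -0.036 and 0.10. The members with the highest GC content included U2af2 and Ptbp1 (55.1% each), Srsf4 (54.1%) and Sf1 (53.1%), all with negative values, but also Hnrnpa0 (55.4%, log2 fold change 0.13). The 5 members with the lowest GC content were Hnrnph1 (37.3%), Mbnl1 and Srsf10 (37.8% each), Rbm25 (38%) and Tra2b (38.7%), of which Tra2b had a negative value (-0.050). Without ISC_22mth replicate 1 rho was -0.37. With offsets for GC content and length in each library, rho was -0.43 and the median of the members -0.038. The part of base composition in the differences of single members was not tested beyond these offsets.

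**Figure D3:**
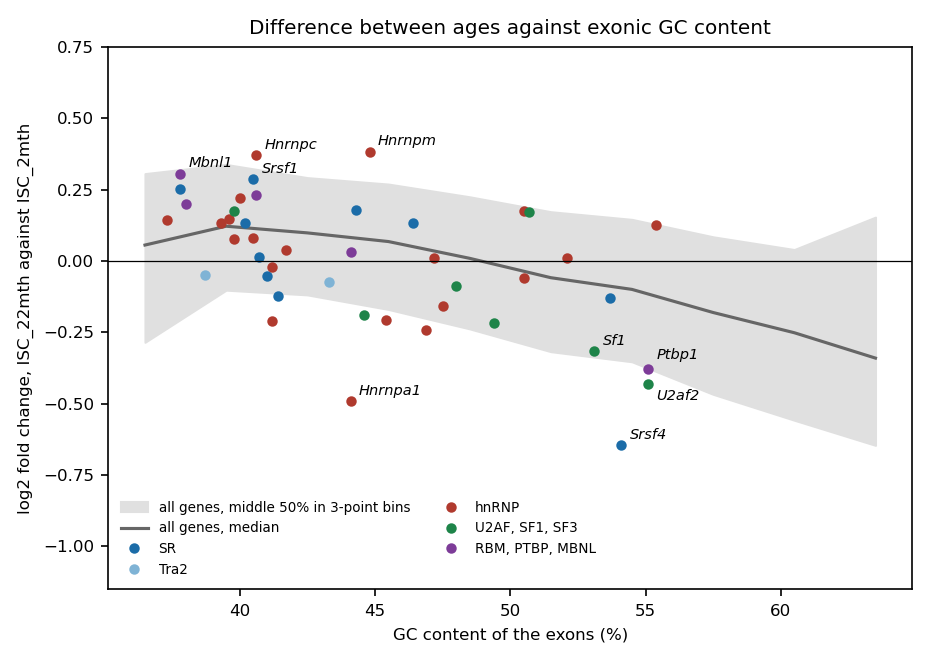
Log2 fold change of ISC_22mth against ISC_2mth pools plotted against the GC content of the exons in percent, with 1 point per splicing factor gene coloured by family, and the median (line) and middle 50% (band) of all genes tested in bins of 3 percentage points. Members at higher GC content have mostly lower values, the median of all genes rises at the lowest GC contents before it falls, and U2af2, Ptbp1, Srsf4 and Sf1 sit low at GC contents above 53%.

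Other genes of the splicing pathway were followed in lists of 14 to 41 genes. The median of the 30 core snRNP genes was -0.0082 on the log2 scale, with 0 called, and 4 higher and 2 lower at an unadjusted p under 0.05. Snrpd3, of the Sm ring, had 222, 292, 123 and 141 counts (log2 fold change -0.74, FDR = 0.059), and Snrpa1 had a value of 0.47 (FDR = 0.17). The 25 catalytic step and release factors had a median of 0.13 with 0 called, Cdc5l (0.46, FDR = 0.18) having the lowest p. The 25 SR-related genes had a median of -0.020 with 0 called and 4 lower at an unadjusted p under 0.05, led by Sfswap (-0.43, FDR = 0.13) and Scaf4 (-0.38, FDR = 0.15). Of 41 other splicing regulators 36 passed the filter, with a median of -0.057 and 0 called, led by Tardbp (0.31, FDR = 0.19).
In the list of SR protein kinases and nuclear import, 11 of 14 genes had negative values, the median was -0.17, and 1 gene passed the test. This was Ppig, which rose from 1279 and 1567 counts to 2083 and 1889, a log2 fold change of 0.70 (SE 0.12, FDR = 0.0044). Ppig is no kinase and no import receptor but a nuclear cyclophilin with a domain rich in arginine and serine. Of the kinases themselves, Clk3 was at -0.62 (FDR = 0.096). The 16 nonsense-mediated decay genes had a median of 0.078 with 0 called. Upf1, the helicase at the centre of that pathway, had 299, 387, 202 and 184 counts (log2 fold change -0.61, FDR = 0.072), and Magoh of the exon junction complex had a value of 0.34 (FDR = 0.23).

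RNAs outside the splicing pathway were followed for the same pools. The nuclear long RNAs Malat1, Kcnq1ot1 and Neat1 fell by 0.44, 0.52 and 0.50 on the log2 scale (FDR = 0.020, 0.023 and 0.040), as 3 of the 5 genes tested in their list. Gas5, of the same list, was at 0.43 (FDR = 0.104), with 5710, 5960, 5789 and 7591 counts. Of 16 immediate early genes tested, which tissue dissociation can induce, Fosb and Egr1 fell by 1.55 and 0.81 (FDR = 0.015 and 0.020), and the list had a median of -0.27. Heat shock genes (9 tested, median 0.14, led by Hsph1 at 0.20, FDR = 0.48) and cell cycle genes (24 tested, median 0.025, led by Rrm2 at 0.55, FDR = 0.051) had 0 calls.
Enterocyte markers rose in 3 of 8 genes (Fabp1, Sis and Fabp2), and the list summed to 233 and 355 CPM in young and 691 and 571 CPM in old pools. Paneth markers rose in 2 of 7 (Defa17 and Defa24). Of 8 tuft cell markers 2 were tested and 1 was called, Dclk1, with 4 and 4 counts in young and 42 and 19 in old pools. Dclk1 passed the filter through the old pools alone, so its call gives no independent support. Itgam rose among the leukocyte markers, where Cd68, the other one tested, was at -0.79 (FDR = 0.32) with both old pools below the young ones. The counts of Defa24 were 3860, 3006, 7713 and 3267 and those of Defa17 were 601, 529, 1514 and 617, so that ISC_22mth replicate 2 was close to the young pools and replicate 1 far above them. Called markers numbered 0 of 10 for stem cells, 0 of 7 for goblet cells and 0 of 7 tested for enteroendocrine cells. At an unadjusted p under 0.05, 2 stem cell markers were higher (Ascl2 and Slc12a2) and 4 lower (Axin2, Sox9, Rgmb and Tnfrsf19), with Axin2, a Wnt target, at -0.46 (FDR = 0.051). The part of these markers and RNAs in the values of the splicing factors was not tested.

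**Figure D4:**
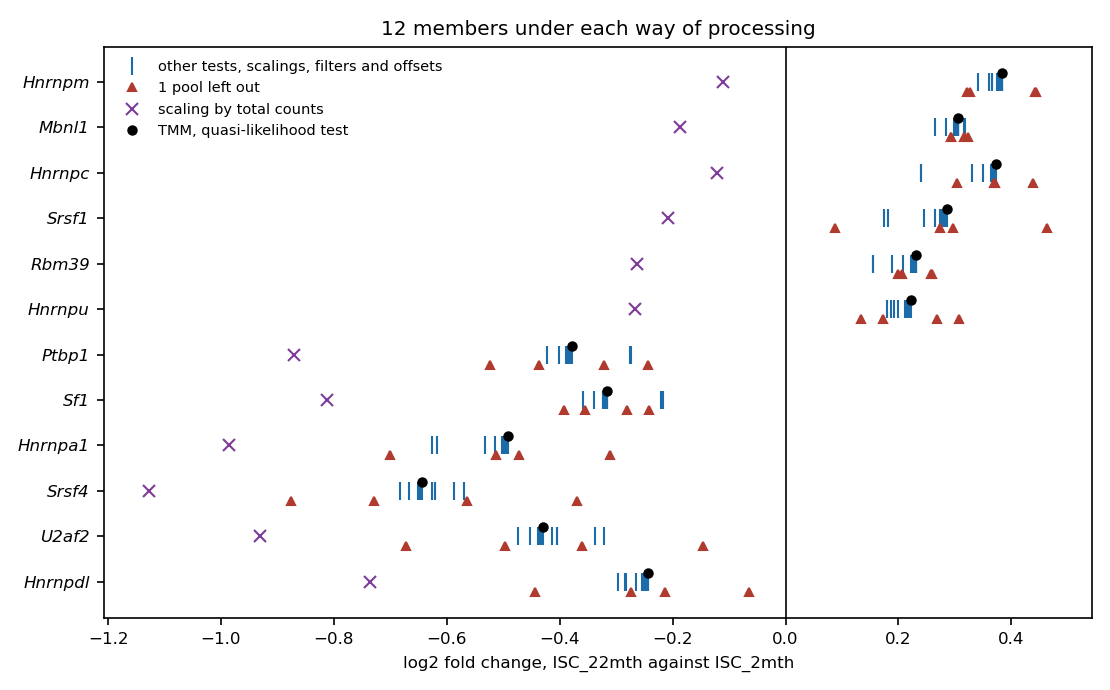
Log2 fold change of the 6 members of lowest p in each direction, in ISC_22mth against ISC_2mth pools, under the quasi-likelihood test with TMM scaling (dots), other tests, scalings, filters and offsets (ticks), with 1 pool left out (triangles) and scaled by total counts (crosses). Scaling by total counts moves every gene to the left, to values from -1.13 for Srsf4 to -0.11 for Hnrnpm.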

How the data were processed

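RNA of sorted ISCs was sequenced in 4 single-end libraries, each from a pool of 5 animals. Reads were trimmed by the authors with Trimmomatic (0.30), aligned with STAR (2.4.2a) to GRCm38 and counted over exons of GENCODE vM15 with featureCounts, and the deposited values are raw counts per gene. The strand setting and the treatment of reads with several positions are not given in the sources used here. As in the study, a gene stayed in the test (13692 of 52459) if any pool had over 5 reads and over 1 CPM for it. Ages were compared with edgeR (4.0.16, R 4.3.3) after TMM normalization, using glmQLFit and glmQLFTest without covariates and Benjamini-Hochberg adjustment over all genes kept (FDR under 0.05). Alternatives were limma voom with sample quality weights (limma 3.58.1) and edgeR's likelihood ratio test, which the study's methods name but whose exact fit was not rebuilt here, and DESeq2 (1.42.0). Standard errors and 95% intervals came from the log2 fold change and the F value. Fits were tested on simulated counts. RPKM used exon lengths of GENCODE vM21, which matched all 45 members by symbol, and shared 50-nt stretches were exact matches on either strand. Pools of an age differed by more than sampling noise (chi-square per gene 9.42 and 7.11).

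Members and lists were chosen with earlier results of these data known. Values are given for each pool for the 6 members of lowest p in each direction, the 3 of highest level and the member under the filter, and in other lists for the genes called or, where 0 were called, for at most the 2 of lowest p. Srsf6, Hnrnpa0, Lgr5, Olfm4, Ptbp2, Ptbp3, Clk3, Gas5, Cd68, Ptprc, the markers named at 0 and the stem cell markers named besides Axin2 and Slc12a2 fall outside this rule and were added after their values were seen. Total counts per pool set the precision of counting, PCR copies cannot be told from separate molecules here, and limits for a count of 0 cover counting error only.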

Additional observations from a re-analysis of the deposited data

How the results depend on the processing

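The calls on the splicing factors kept their side of the threshold under 13 of 14 other ways of processing, with 0 of the members called. The exception was scaling by total counts, under which 27 members (61.4%) were lower with FDR under 0.05, against 33.3% of all genes tested, the median of the members was -0.47 and that of all genes -0.50, and 4650 genes were called, 4554 of them lower and 96 higher. Relative to that shift of all genes the members' median was 0.029. Under that scaling the 6 members named for positive values turned negative, Hnrnpm to -0.11, Mbnl1 to -0.19, Hnrnpc to -0.12, Srsf1 to -0.21, Rbm39 and Hnrnpu to -0.26 and -0.27 on the log2 scale. This scaling counts the larger mitochondrial share of the old pools as depth. The median of the members was -0.019 with the upper quartile, -0.038 with offsets for GC content and length, and -0.040 with these offsets and the replicate block. The number of genes called in all was 309, and became 197 with DESeq2, 611 with the likelihood ratio test, 554 without a filter, 137 with the offsets and 98 with the offsets and the replicate block. With the replicate number as a block it was 623, and 0 members were called. The sample titles give no link between samples of the same number beyond that number. Their deviations from the age means had a correlation of -0.00015 across genes, and an effect shared in only some genes was not tested. The block changed no call on a member.

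With each pool left out in turn, in fits where the lone pool of an age is assumed to vary like the others, between 151 and 710 genes were called, between 0 and 1 members were higher and between 0 and 1 lower, and the median of the members lay between -0.026 and 0.073. The calls were Hnrnpm and Hnrnpdl without ISC_22mth replicate 1, and Srsf1 and Ptbp1 without ISC_22mth replicate 2. The cause of these shifts was not tested. With 2 pools per age, differences smaller than the intervals given for each gene could not be resolved.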
